A study of Mus musculus with 24 samples.

Results

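The genes described here encode the proteasome and the factors that bind it or put it together. They were taken from a table of RPKM (reads scaled by transcript length and by all mapped reads of a library) by their symbols, Psma to Psmg followed by a number, using only curated RefSeq mRNA entries and, for each symbol, the entry with the highest mean over all libraries. The inducible subunits Psmb8 and Psmb9 stand outside that rule and are given with the partner genes at the end. The rule found 47 of the 20461 symbols with such an entry. Among them were 8 alpha and 9 beta subunits of the 20S core, 6 ATPases and 11 non-ATPase subunits of the 19S cap, 5 activators or inhibitors and 7 assembly chaperones. The remaining member, Psmc3ip, a meiotic recombination factor, was caught by its name only and is no subunit.

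RNA was measured in primary brite adipocytes, fat cells of a white depot that acquire the thermogenic programme of brown fat, derived from stromal vascular cells of the inguinal depot of 129SvEv mice and differentiated with rosiglitazone. On day 1 of differentiation the cells were reverse transfected with 50 nM of an antisense LNA gapmer, either one directed at the long noncoding RNA Ctcflos (knockdown, KD) or a nontargeting control (NC). RNA was harvested 24 h or 72 h later, which gave KD and NC groups at each time with 6 libraries each. The labels do not say which of the Ctcflos gapmers was used, and NC cells had been transfected as well. The study speaks of such samples as biological replicates, while the sources read here do not say whether the libraries of a group came from separate cultures or animals, so p-values measure the spread between these libraries.

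The proteasome degrades proteins that carry ubiquitin chains. In its barrel-shaped 20S core, outer rings of alpha subunits gate the entry and inner rings of beta subunits hold the active sites. The 19S cap binds ubiquitin chains, removes them and feeds the unfolded substrate into the core by a ring of ATPases. Cells short of proteasome activity raise the subunit genes together through the transcription factor NRF1 (Nfe2l1), which binds antioxidant response elements in their promoters. In brown fat, this axis is known to support proteasome capacity in the cold.

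Promoters bear on such shared control, so the promoter table was searched for a core of the antioxidant response element, TGACNNNGC, and for the CCAAT box, each on both strands from 250 bases before to 50 bases after the transcription start. The sequences are from RefSeq (GRCm38.p6), where 39 of the 47 members matched. The 8 without a promoter, which were not searched, were Psma8, Psmb1, Psmb2, Psmb7, Psmc3, Psmd3, Psmd7 and Psmg2. TGACNNNGC was found in 6 of the 39 genes (15.4%), namely Psmb5, Psmb6, Psmc6, Psmd12, Psmd9 and Psme4, against 14% of 27025 genes in the table. CCAAT was found in 14 of the 39 (35.9%), against 41.1% of all genes. The 6 genes with TGACNNNGC included Psmc6 and Psmb6, which changed in opposite directions after the knockdown, as described below with their levels. The other genes with this motif were not called at either time. A link between the motif and the changes was not tested. The promoters of the members described in detail that hold the motif are printed 5′ to 3′ with the matched letters in capitals. The match lies on the printed strand in Psmb6 and Psmb5, beginning 9 and 47 bases before the start, and on the opposite strand in Psmc6 and Psme4, beginning 227 and 7 bases before it. A match is a description of letters and not a measured binding site.
Psmb6, chr11:70525107-70525406, plus strand: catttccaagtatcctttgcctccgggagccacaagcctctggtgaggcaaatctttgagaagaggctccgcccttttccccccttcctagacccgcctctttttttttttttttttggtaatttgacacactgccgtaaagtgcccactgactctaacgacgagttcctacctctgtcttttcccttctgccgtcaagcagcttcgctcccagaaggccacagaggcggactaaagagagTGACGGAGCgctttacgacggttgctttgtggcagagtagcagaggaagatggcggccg
Psmc6, chr14:45329574-45329873, plus strand: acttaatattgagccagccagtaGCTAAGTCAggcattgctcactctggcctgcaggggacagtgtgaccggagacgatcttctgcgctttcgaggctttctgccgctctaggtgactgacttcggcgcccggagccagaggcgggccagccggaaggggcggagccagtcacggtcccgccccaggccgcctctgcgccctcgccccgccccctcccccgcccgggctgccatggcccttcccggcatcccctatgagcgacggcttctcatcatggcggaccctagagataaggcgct
Psmb5, chr14:54617946-54618245, minus strand: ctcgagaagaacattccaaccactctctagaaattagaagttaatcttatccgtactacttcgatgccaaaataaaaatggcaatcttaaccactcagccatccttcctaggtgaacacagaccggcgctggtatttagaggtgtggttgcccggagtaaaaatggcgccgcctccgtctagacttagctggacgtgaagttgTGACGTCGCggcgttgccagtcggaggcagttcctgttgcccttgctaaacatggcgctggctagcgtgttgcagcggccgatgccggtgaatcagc
Psme4, chr11:30771525-30771824, plus strand: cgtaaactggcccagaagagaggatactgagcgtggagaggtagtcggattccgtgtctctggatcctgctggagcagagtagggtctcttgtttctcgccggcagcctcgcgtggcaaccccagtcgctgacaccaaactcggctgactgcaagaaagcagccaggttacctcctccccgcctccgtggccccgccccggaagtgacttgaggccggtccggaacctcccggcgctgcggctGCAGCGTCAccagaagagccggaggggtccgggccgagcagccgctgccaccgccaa

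Read totals recovered from the steps of the RPKM values were lowest for KD 24 h replicate 6 (1391832) and highest for NC 24 h replicate 2 (5423840), with a median of 3945867. Replicates 2 and 3 of NC 72 h differed by less than sampling noise and were averaged as 1 sample, which left n = 5 there. A RefSeq entry of Ctcflos, not matched to the isoform that the gapmer targets, reached 0 to 0.56 RPKM (0 to 6 reads) in KD 24 h. In NC 24 h it reached 0.19 to 1.45 (3 to 20 reads), so the groups overlapped. At 72 h it reached 0 to 0.44 in KD and 0.92 to 1.86 in NC, without overlap. Apart from the groups, the libraries formed a larger cluster of 16 and a smaller one of 8, the latter with KD 24 h replicates 3 and 4, NC 24 h replicates 5 and 6, KD 72 h replicates 5 and 6, and NC 72 h replicates 4 and 5. RPKM were scaled by a trimmed mean of log ratios, and levels below are scaled RPKM. On the deposited scale the median entry at 72 h was 0.25 higher in KD on the log2 scale, against 0.01 after scaling, and 80.9% instead of 46.1% of the calls were higher, so that all changes are relative to the typical transcript. The summed level of 7 adipocyte marker genes was lower in KD than in NC without overlap, with 36359 to 48528 against 49302 to 51802 RPKM at 24 h and 25545 to 34816 against 35837 to 47953 at 72 h. Most of that sum was the lipid carrier Fabp4, with means of 39965 RPKM in KD and 45316 in NC at 24 h and 25243 and 37682 at 72 h. Fabp4 overlapped at 24 h, with 32676 to 45962 against 44395 to 46937, and not at 72 h. Adipoq did not overlap at either time, and the thermogenic genes Ucp1 and Cidea overlapped at 24 h and not at 72 h. Plin1, Lipe and Cidec, a lipid droplet protein, overlapped at both times. Cidec had 1747 to 2473 RPKM in KD 72 h and 1606 to 2253 in NC 72 h. The 4 endothelial markers summed to at most 1.59 RPKM and the 7 macrophage markers to 2.85 to 31.7. The 6 preadipocyte and stromal markers summed to 339 to 992 RPKM, almost all of it Ly6a with 331 to 981. The 3 lymphocyte markers were at 0 in every library. In such bulk samples, fewer cells of a type and less RNA per cell cannot be told apart, and the part of these marker differences in the results below was not tested.

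Of the 47 members, 45 passed the filter on low values in every comparison. Psma8, an alpha subunit known from testis, had at most 4 reads in a library, and Psmb11, a beta subunit known from the thymic cortex, had none. A change was called where the adjusted p-value of limma over all tested entries was under 0.05. At 24 h, 6 of 45 members were higher and 2 were lower in KD, where 11.1% of the 9386 genes tested by 1 RefSeq entry each were called higher and 13.0% lower. At 72 h, 10 of 45 were higher and 2 were lower, against 11.0% and 12.4% of 9803 genes. The corresponding shares of the members were 13.3% and 4.44% at 24 h and 22.2% and 4.44% at 72 h. Libraries of the groups did not overlap for Psmc6 (higher) and Psmb6 (lower) at 24 h, 2.22% of the members in each direction against 5.04% and 7.79% of genes. At 72 h they did not overlap for 7 higher members (15.6%) and for 1 lower member, Psmb6 (2.22%), against 6.55% and 8.31%. The total of members called at 24 h, 17.8%, thus lay below the background of 24.1%, and that at 72 h, 26.7%, near its background of 23.5%. Psmb4, Psmb6, Psmc2, Psmc6 and Psmd2 were called at both times, each in the same direction. These made 5 of the 8 members called at 24 h and 5 of the 12 at 72 h. The share of all genes called at both times was not counted, so this overlap has no background to be read against.

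The count at 24 h moved with single libraries. It ranged from 2 without NC 24 h replicate 1 to 10 without KD 24 h replicate 4 or 6, and the calls of Psmc6 and Psmb6 were the ones kept whichever library was left out. At 72 h the count ranged from 9 without NC 72 h replicate 5 or 6 to 13 without KD 72 h replicate 6, and 8 of the 12 calls were kept throughout. On the deposited scale 25 members were called at 72 h, all of them higher. Within the larger cluster 4 of the 8 calls at 24 h and 10 of the 12 at 72 h were kept. Within the smaller cluster, with 2 libraries a group, Psmc6 was the 1 call kept at 24 h and Psmb10 the 1 kept at 72 h.

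**Figure D1:**
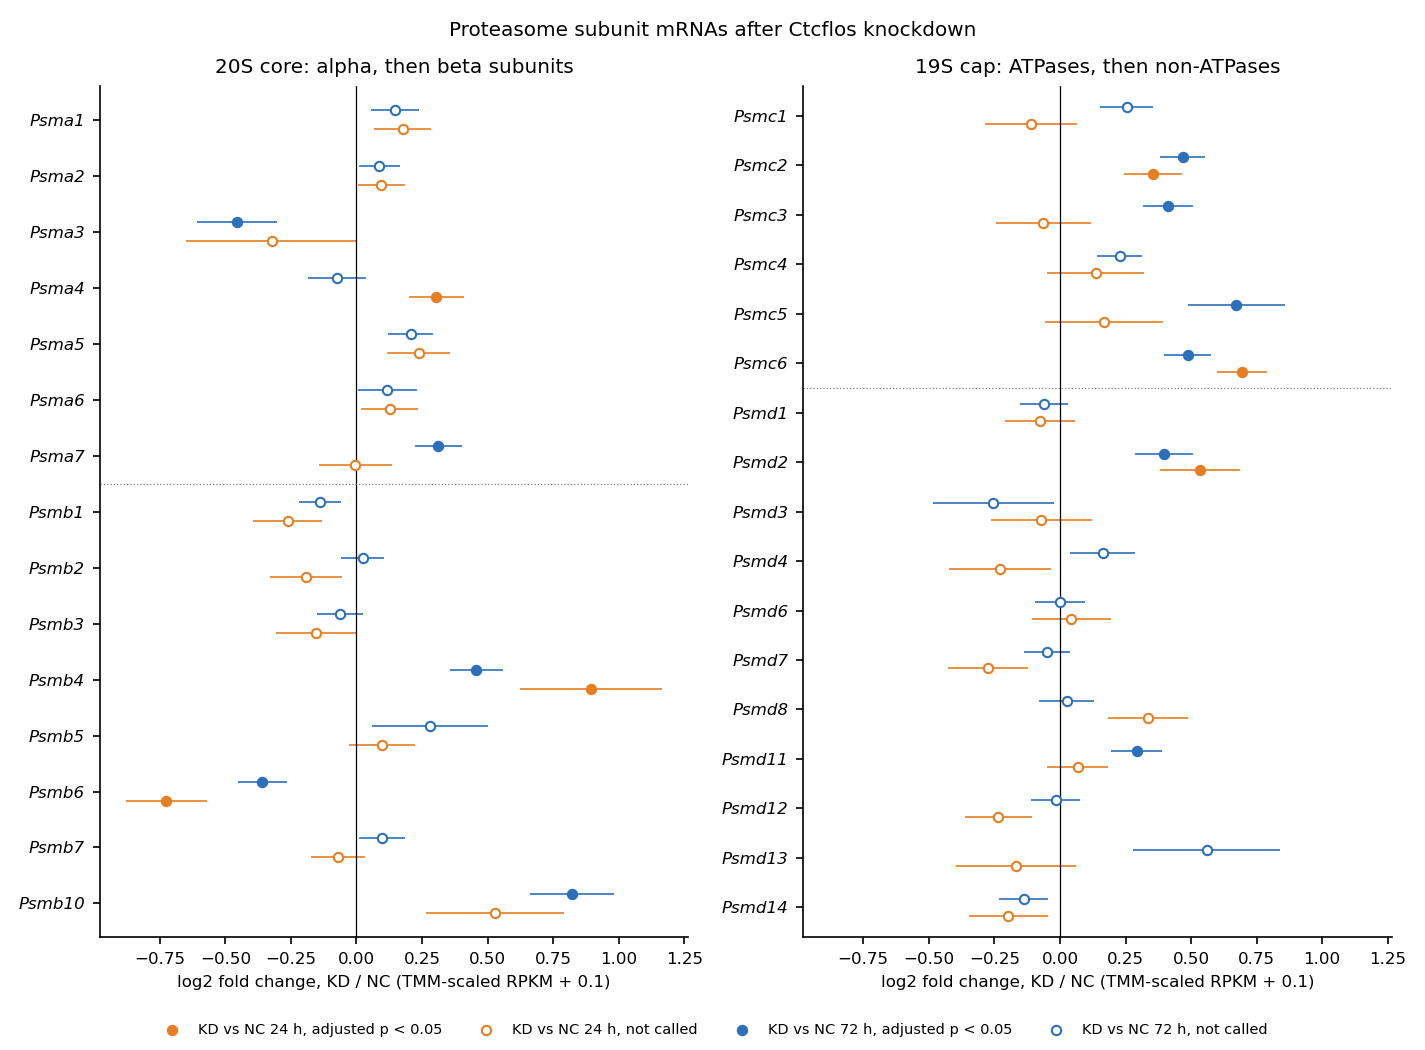
Log2 fold change of each core and cap subunit that passed the filter, KD against NC, at 24 h (orange) and 72 h (blue), ordered by class, with bars of 1 SE and filled points for calls by limma. The ATPases Psmc6 and Psmc2 lie right of 0 at both times, and Psmb6 lies at -0.72 and -0.36.

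Of the 6 ATPases of the cap, the ring that unfolds substrates, 4 rose at 72 h and none fell, where 11.0% of genes were called higher. All 6 had a positive log2 fold change at that time, where 51.4% of genes had one. Their values ran from 0.23 to 0.67 with a median of 0.44, whereas the median over all entries tested was 0.01. At 24 h, 2 of the 6 rose, against 11.1% of genes, and the median was 0.15. Psmc6 (Rpt4) rose at both times. Its level was 155 RPKM in the lowest, 191 in the median and 205 in the highest library of KD 24 h, against 108, 111 and 128 in NC 24 h. At 72 h it was 159, 187 and 195 in KD, against 118, 142, 136, 121 and 127 in NC. Every KD library stood above every NC library of its time. The log2 fold change was 0.69 ± 0.10 (SE) at 24 h (adjusted p = 0.00041) and 0.49 ± 0.09 at 72 h (adjusted p = 0.0015), that is, 1.62-fold and 1.40-fold. At 24 h it was 0.71 within the larger and 0.66 within the smaller cluster, called in both, so that the early difference was as large within clusters as over all libraries. At 72 h it was 0.56 within the larger cluster (adjusted p = 8.1e-04) and 0.34 within the smaller one (adjusted p = 0.13, not called). All 5 table entries of Psmc6 were called higher at each time, though these entries share reads.

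Psmc2 (Rpt1) had 86.8, 118 and 133 RPKM in the lowest, median and highest library of KD 24 h and 79.9, 88.7 and 97.5 in NC 24 h. In KD 72 h it had 114, 123 and 138 RPKM, and in NC 72 h 83.2, 84.2, 99.5, 91.0 and 87.4. The groups overlapped at 24 h, with KD 24 h replicate 6 the lowest KD library, and stood apart at 72 h. The log2 fold change was 0.35 ± 0.11 at 24 h (adjusted p = 0.034) and 0.47 ± 0.09 at 72 h (adjusted p = 0.0015). The early call was lost in 9 of 12 fits that left out a library, with adjusted p up to 0.077, and it stood at 0.43 (adjusted p = 0.0033) without KD 24 h replicate 6. The later change was 0.58 within the larger and 0.27 (adjusted p = 0.22, not called) within the smaller cluster.

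Psmc5 (Rpt6) was the least abundant ATPase entry, with 17 to 148 reads in a library. Its level was 17.8, 24.8 and 27.0 RPKM in the lowest, median and highest library of KD 72 h, and 19.4, 15.6, 16.7, 15.5 and 8.94 in NC 72 h. The groups overlapped, since NC 72 h replicate 1 reached into the KD range, and the log2 fold change was 0.67 ± 0.18 (adjusted p = 0.018). It was 0.88 within the larger cluster (adjusted p = 0.014) and 0.29 within the smaller one (adjusted p = 0.40, not called). At 24 h, with 8.65, 20.2 and 24.5 RPKM in KD and 13.4, 14.8 and 20.8 in NC, its log2 fold change of 0.17 ± 0.22 was not called.

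Psmc3 (Rpt5) rose by 0.41 ± 0.10 at 72 h (adjusted p = 0.0070) and had a log2 fold change of -0.06 ± 0.18 at 24 h. This gene overlaps Slc39a13 in the GENCODE M21 annotation, and as nothing states whether strand was used, its reads are not certain to be its own. The same limit holds for Psmb5 (Mir686), Psmb7 (Nek6), Psmd1 (Gm21972 and Htr2b), Psmd3 (Gm12356), Psmd9 (Gm26745) and Psmc3ip (Mlx). It also holds for the members named with an overlap below. Psmc1 (Rpt2) and Psmc4 (Rpt3) had log2 fold changes of 0.25 (adjusted p = 0.083) and 0.23 (adjusted p = 0.067) at 72 h. For Psmc4 the libraries did not overlap, with 121 to 150 RPKM in KD and 108 to 120 in NC, although the difference was not called.

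**Figure D2:**
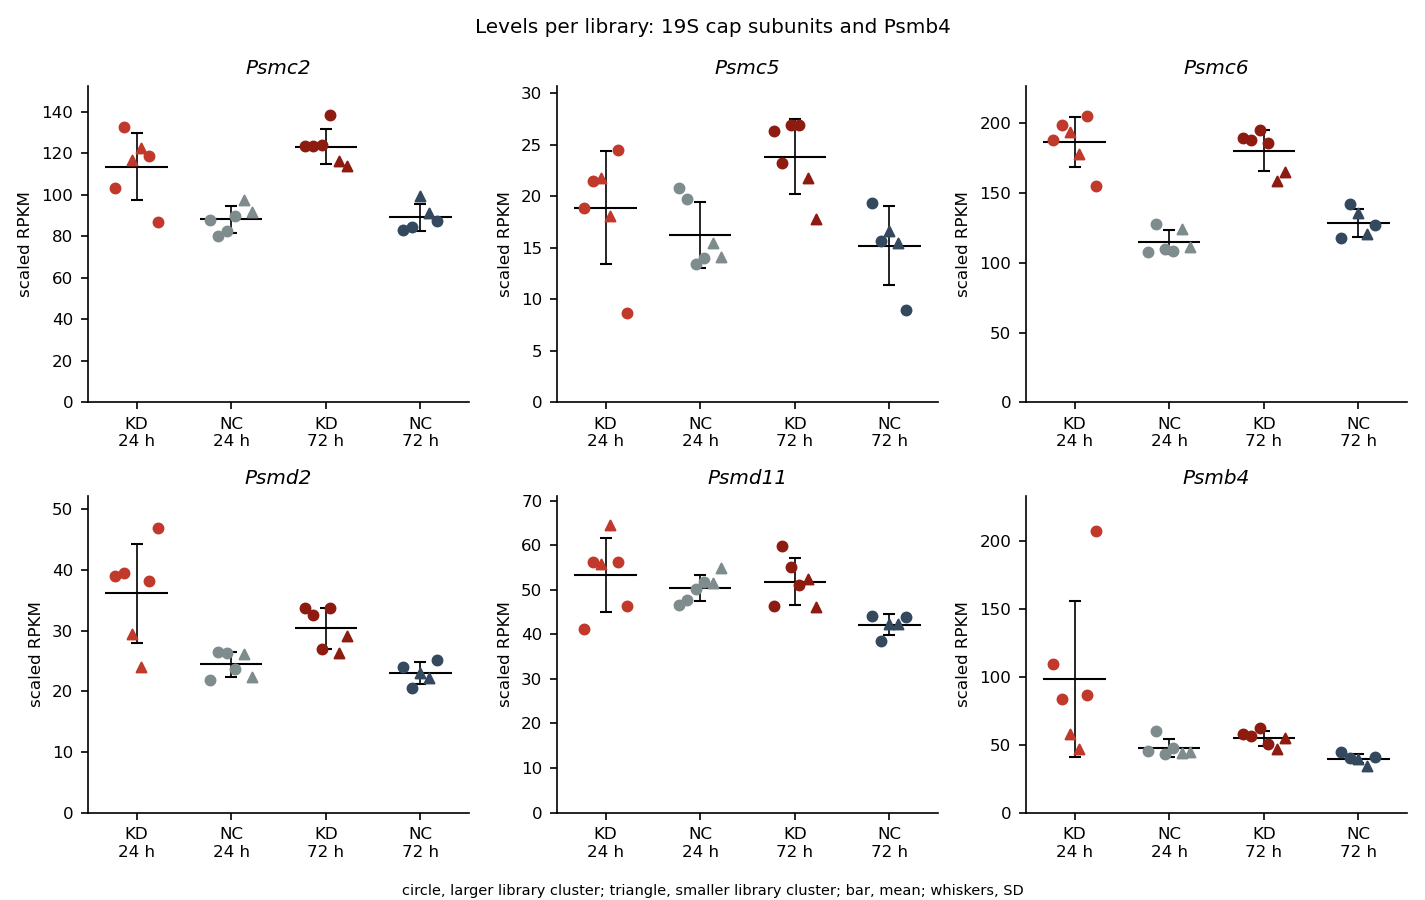
Scaled RPKM of Psmc2, Psmc5, Psmc6, Psmd2, Psmd11 and Psmb4 in every library of the 4 groups, with circles for the larger and triangles for the smaller cluster, bars for means and whiskers for SD. Psmc6 in KD lies at 155 to 205 and above all NC libraries of the same time, and Psmb4 in KD 24 h spreads from 46.9 to 207.

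Among the 11 non-ATPase cap subunits, 1 rose at 24 h and 2 at 72 h, where 11.1% and 11.0% of genes were called higher. The median log2 fold changes were -0.08 and 0.00. Psmd2 (Rpn1), the large scaffold that receives ubiquitin shuttles, was called at both times. It had 23.9, 38.5 and 47.0 RPKM in the lowest, median and highest library of KD 24 h against 21.9, 24.9 and 26.4 in NC 24 h. At 72 h it had 26.2, 30.8 and 33.8 RPKM in KD against 24.0, 20.5, 23.0, 22.2 and 25.2 in NC. The groups overlapped at 24 h and not at 72 h. Its log2 fold change was 0.53 ± 0.15 at 24 h (adjusted p = 0.023) and 0.40 ± 0.11 at 72 h (adjusted p = 0.019). At 24 h it was 0.73 within the larger cluster (adjusted p = 0.0045) and 0.14 in the smaller one (not called), and the call narrowly missed the threshold without KD 24 h replicate 2 (adjusted p = 0.0503) or NC 24 h replicate 1 (adjusted p = 0.0504).

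Psmd11 (Rpn6), a subunit that clamps cap and core together, had 46.1, 51.8 and 59.9 RPKM in the lowest, median and highest library of KD 72 h and 44.0, 38.4, 42.3, 42.2 and 43.9 in NC 72 h. These groups did not overlap, and the log2 fold change was 0.29 ± 0.10 (adjusted p = 0.043). The call was lost in 9 of 11 fits that left out a library, with adjusted p up to 0.099. At 24 h Psmd11 had 41.1, 55.9 and 64.4 RPKM in KD and 46.6, 50.8 and 54.9 in NC, with a log2 fold change of 0.07 ± 0.12.

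The other 9 non-ATPase subunits were not called at either time. They included the scaffold Psmd1 (Rpn2) with log2 fold changes of -0.08 at 24 h and -0.06 at 72 h, the ubiquitin receptor Psmd4 (Rpn10) with -0.23 and 0.16, and the deubiquitinase Psmd14 (Rpn11) with -0.20 and -0.14. Psmd7 (Rpn8), the partner of Psmd14, had -0.27 and -0.05, and Psmd12 (Rpn5), whose promoter holds TGACNNNGC, had -0.24 and -0.02. Psmd3 (Rpn3), the least abundant cap subunit, had -0.07 and -0.25, and Psmd6 (Rpn7) had 0.04 and 0.00. Psmd8 (Rpn12) had 0.34 ± 0.15 at 24 h (adjusted p = 0.12) and 0.03 at 72 h. Psmd13 (Rpn9) had the largest difference at 72 h in this class, 0.56 ± 0.28 (adjusted p = 0.17), with 7.35 to 26.2 RPKM in KD and 7.83 to 15.2 in NC. It overlaps Sirt3 in GENCODE M21.

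In the core, the 3 constitutive catalytic subunits did not move together. Psmb6 (β1), the caspase-like site, fell at both times. It had 75.3, 110 and 150 RPKM in the lowest, median and highest library of KD 24 h, against 170, 182 and 208 in NC 24 h. At 72 h it had 121, 139 and 143 RPKM in KD, against 190, 185, 150, 159 and 197 in NC. No KD library reached the NC range at either time. The log2 fold change was -0.72 ± 0.15 at 24 h (adjusted p = 0.0049) and -0.36 ± 0.09 at 72 h (adjusted p = 0.014), so the level in KD was 0.605 and 0.780 of that in NC. The later value became -0.11 (adjusted p = 0.40) on the deposited scale, whereas the earlier one was -0.65 (adjusted p = 0.0032) there. Within the clusters it was -0.94 and -0.28 at 24 h, of which the second was not called, and -0.44 and -0.26 (adjusted p = 0.25) at 72 h.

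Psmb7 (β2), the trypsin-like site, had 109, 131 and 146 RPKM in KD 24 h and 121, 128 and 149 in NC 24 h, each as lowest, median and highest library. Psmb7 at 72 h had 112, 123 and 133 in KD and 107, 115, 117, 107 and 132 in NC. The groups overlapped at both times, and the log2 fold changes of -0.07 ± 0.10 and 0.10 ± 0.09 were not called. On the deposited scale, however, Psmb7 was called higher at 72 h, at 0.35 (adjusted p = 0.0095). Psmb5 (β5), the chymotrypsin-like site, had 15.8, 21.0 and 23.0 RPKM in KD 24 h and 17.5, 18.6 and 22.5 in NC 24 h. Psmb5 at 72 h had 12.3, 17.3 and 23.6 in KD and 15.7, 16.7, 9.17, 10.2 and 21.2 in NC. Its log2 fold changes of 0.10 ± 0.13 and 0.28 ± 0.22 were not called either, and the later value was 0.53 (adjusted p = 0.066) on the deposited scale. Psmb5 and Psmb6 both hold TGACNNNGC in the promoters printed above, whereas Psmb7 had no promoter to search.

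Psmb10, the inducible β2 subunit that takes the place of Psmb7 in the immunoproteasome, rose at 72 h by 0.82 ± 0.16 (adjusted p = 0.0026), or 1.77-fold. It had 55.1, 65.6 and 79.2 RPKM in the lowest, median and highest library of KD 72 h, against 37.2, 49.5, 27.9, 28.2 and 48.1 in NC 72 h. The groups stood apart, and the call was kept within the larger cluster at 0.62 (adjusted p = 0.0050) and within the smaller one at 1.09 (adjusted p = 0.0026). At 24 h Psmb10 had 74.6, 184 and 206 RPKM in KD and 67.8, 109 and 148 in NC, with a log2 fold change of 0.53 ± 0.26 (adjusted p = 0.16). Its lowest libraries at 24 h were those of the smaller cluster in both groups, and it was called within the larger cluster at 0.66 (adjusted p = 0.0057), with the cluster as a covariate (adjusted p = 0.0052) and without KD 24 h replicate 4 (adjusted p = 0.030).

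**Figure D3:**
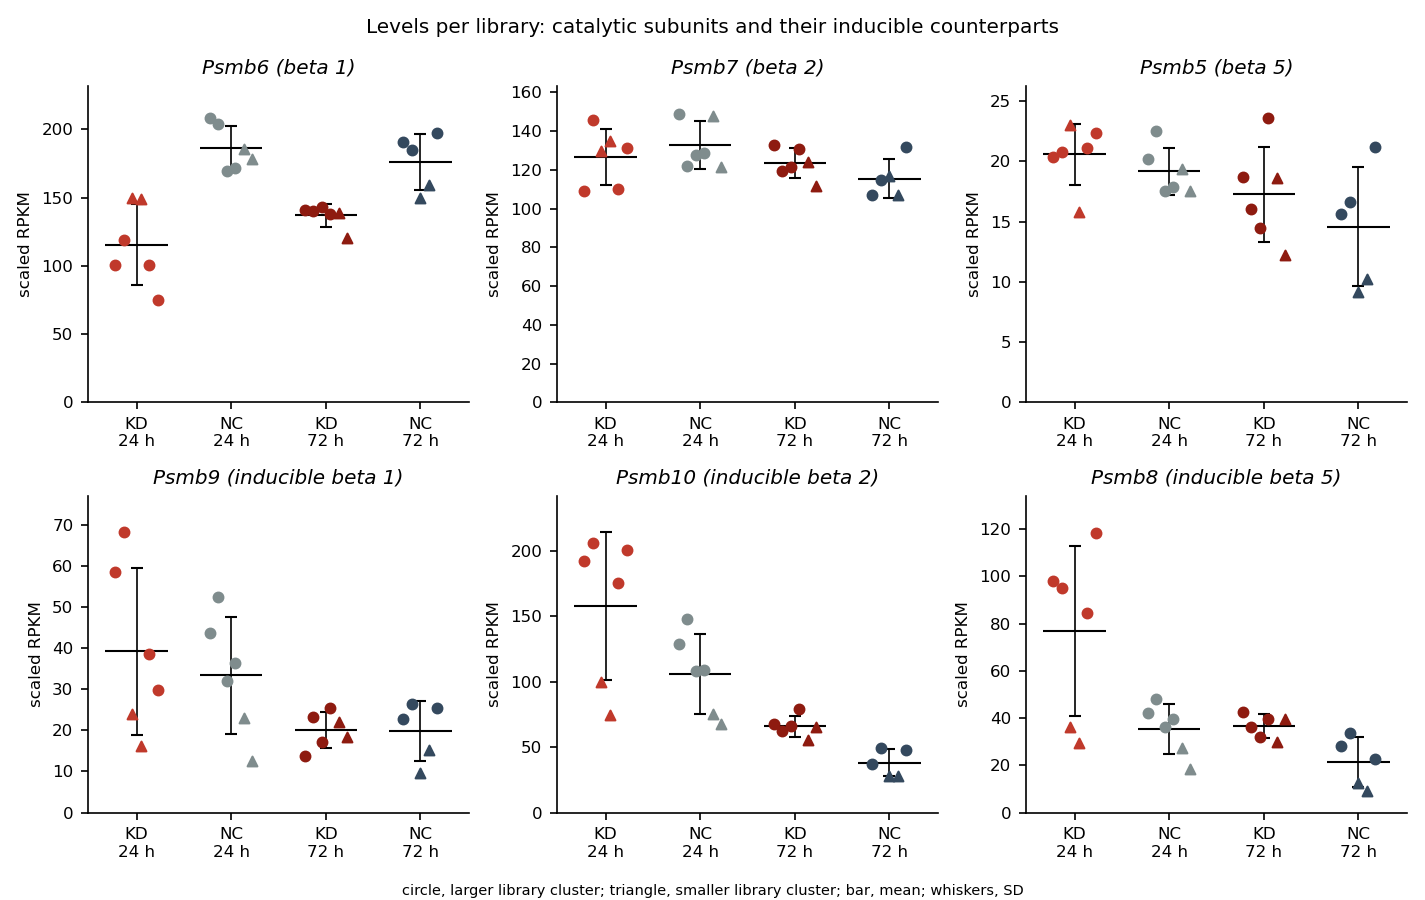
Scaled RPKM in every library of the constitutive catalytic subunits Psmb6, Psmb7 and Psmb5 (top) and of their inducible counterparts Psmb9, Psmb10 and Psmb8 (bottom), with circles for the larger and triangles for the smaller cluster, bars for means and whiskers for SD. Psmb6 is lower in all KD libraries, at 75.3 to 150 at 24 h, and Psmb10 falls from 67.8 to 148 in NC 24 h to 27.9 to 49.5 in NC 72 h.

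Psmb4 (β7), a beta subunit without an active site, was called higher at both times. It had 46.9, 84.9 and 207 RPKM in the lowest, median and highest library of KD 24 h and 42.7, 44.9 and 60.3 in NC 24 h. Psmb4 at 72 h had 46.9, 55.4 and 61.9 in KD and 44.3, 40.2, 39.3, 34.2 and 40.5 in NC. The groups overlapped at 24 h, where KD 24 h replicate 6, the library with the fewest reads, held the highest value, and they did not overlap at 72 h. The log2 fold change was 0.89 ± 0.27 at 24 h (adjusted p = 0.028) and 0.46 ± 0.10 at 72 h (adjusted p = 0.0058). Without KD 24 h replicate 6 the early change was 0.65 (adjusted p = 0.018). It was 1.22 within the larger cluster and 0.24, not called, in the smaller one, and it was lost in 7 of 12 fits that left out a library. The part of the clusters in the early change of Psmb4 was not tested. The remaining beta subunits Psmb1, Psmb2 and Psmb3 were not called, with log2 fold changes of -0.26, -0.19 and -0.16 at 24 h and -0.14, 0.02 and -0.06 at 72 h.

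Of the 7 alpha subunits, which form the gated outer rings, that passed the filter, 1 rose at 24 h, where 11.1% of genes were called higher. At 72 h 1 rose and 1 fell, where 11.0% of genes were called higher and 12.4% lower. The median log2 fold changes were 0.13 and 0.12. Psma7 (α4), the most abundant of the called members, had 589, 673 and 701 RPKM in the lowest, median and highest library of KD 72 h and 535, 595, 557, 451 and 538 in NC 72 h. The groups overlapped by 1 NC library, and the log2 fold change of 0.31 ± 0.09 (adjusted p = 0.021) was lost without NC 72 h replicate 5 (adjusted p = 0.054). At 24 h Psma7 had 364, 626 and 716 RPKM in KD and 541, 583 and 592 in NC, with a log2 fold change of 0.00 ± 0.14.

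Psma3 (α7) fell at 72 h, with 7.67, 8.78 and 12.1 RPKM in KD and 11.1, 10.1, 13.9, 14.9 and 13.0 in NC, a log2 fold change of -0.46 ± 0.15 (adjusted p = 0.046). At 24 h it had 3.17, 12.5 and 18.7 RPKM in KD and 11.8, 13.4 and 15.2 in NC, which was not called. Psma3 was the lowest alpha subunit here, with 7 to 123 reads in a library, and its call was lost in 9 of 11 fits that left out a library, with adjusted p up to 0.11. Without scaling it was -0.21 (adjusted p = 0.37).

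Psma4 (α3) rose at 24 h, with 75.9, 90.7 and 109 RPKM in KD and 63.8, 74.3 and 78.2 in NC, a log2 fold change of 0.30 ± 0.10 (adjusted p = 0.049). The groups overlapped, 10 of 12 fits that left out a library lost the call (adjusted p up to 0.11), and the gene overlaps AY074887 on the opposite strand. Psma4 at 72 h had 63.0, 69.4 and 83.7 RPKM in KD and 72.7, 70.7, 77.0, 64.3 and 91.5 in NC, with a log2 fold change of -0.07 ± 0.11. Psma1, Psma2, Psma5 and Psma6 were not called, and their log2 fold changes lay between 0.10 and 0.24 at 24 h and between 0.09 and 0.21 at 72 h.

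Core and cap were set against each other by class medians and by the mean log2 level of their subunits in each library, both as descriptions. At 24 h the median log2 fold change was 0.10 over the 15 core subunits that passed and -0.06 over the 17 cap subunits. The medians at 72 h were 0.10 in the core and 0.23 in the cap. The cap median at 24 h changed sign, to 0.11 without KD 24 h replicate 6 and to 0.01 on the deposited scale. The core exceeded the cap by 1.61 ± 0.09 (SD, n = 6) log2 units in KD 24 h and by 1.61 ± 0.07 (n = 6) in NC 24 h. The size of this gap is not a ratio of mRNA copies, since RPKM of 3′ reads understates long transcripts. The core entries that passed are 731 to 1434 bases long and the cap entries 1252 to 3256, and the part of length in the gap was not tested. At 72 h the gap was 1.34 ± 0.05 (n = 6, range 1.29 to 1.40) in KD and 1.45 ± 0.07 (n = 5, range 1.39 to 1.56) in NC. The ranges overlapped at 24 h, and at 72 h, where the mean gap was narrower in KD, they overlapped at their ends. The narrower gap at 72 h was seen in the larger cluster, with 1.29 to 1.35 in KD and 1.43, 1.47 and 1.56 in NC. In the smaller cluster the gap was 1.40 and 1.39 in KD and likewise 1.40 and 1.39 in NC. The cap mean was 5.65 to 5.91 log2 units in KD 72 h and 5.57 to 5.68 in NC 72 h.

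Together, core and cap genes took 0.595% ± 0.044 (SD, n = 6) of the recovered reads in KD 24 h and 0.543% ± 0.018 (n = 6) in NC 24 h. At 72 h they took 0.654% ± 0.013 (n = 6) in KD and 0.504% ± 0.014 (n = 5) in NC. The shares overlapped at 24 h, with 0.517% to 0.647% against 0.529% to 0.576%, and did not at 72 h, with 0.638% to 0.668% against 0.482% to 0.518%. These shares were not scaled between libraries, unlike the levels above. The summed adipocyte markers, mostly Fabp4, were lower in KD at both times, and their part in the shares was not tested.

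**Figure D4:**
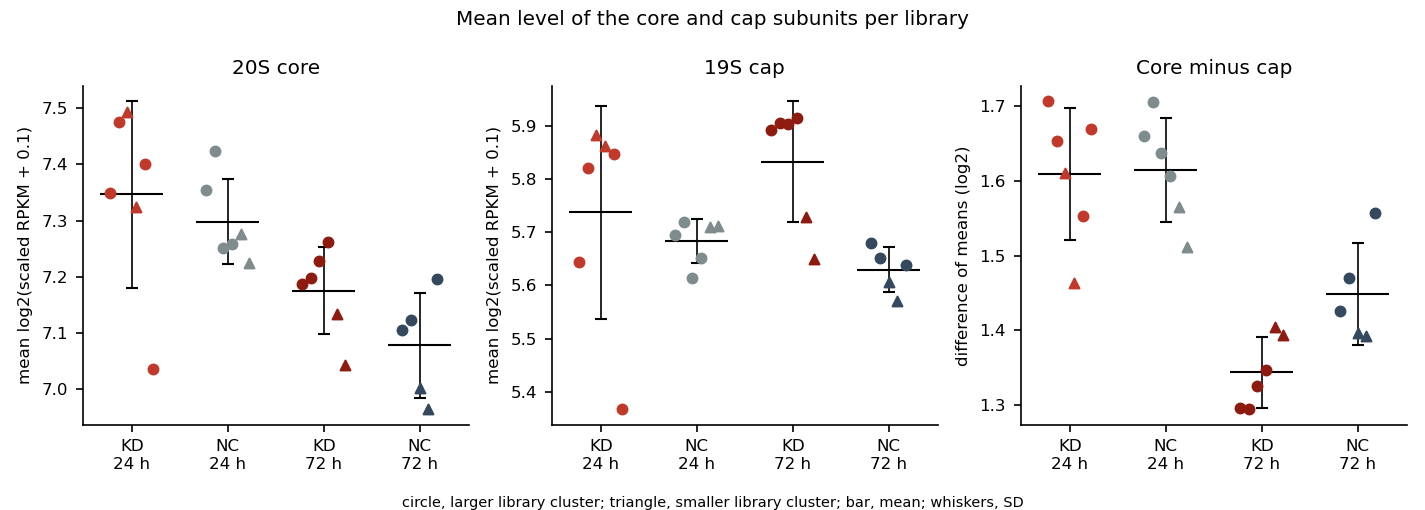
Mean log2 level of the core and of the cap subunits in each library, and their difference, by group, with bars for means and whiskers for SD. The difference lies near 1.61 in both groups at 24 h, and at 1.34 in KD against 1.45 in NC at 72 h.

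Activators and the inhibitor, which open or close the core without the 19S cap, had median log2 fold changes of -0.26 at 24 h and -0.06 at 72 h. Of the 5, 1 fell at 24 h, where 13.0% of genes were called lower. None was called at 72 h, where 23.5% of genes were called in either direction. Psme2 (PA28β), an interferon-inducible activator, had 1.45, 4.22 and 5.06 RPKM in the lowest, median and highest library of KD 24 h and 5.01, 6.09 and 7.65 in NC 24 h. In the later libraries it had 1.43, 3.19 and 4.95 RPKM in KD and 4.93, 5.10, 2.08, 2.23 and 1.62 in NC. The log2 fold change was -0.80 ± 0.27 at 24 h (adjusted p = 0.048) and 0.08 ± 0.35 at 72 h. The entry had 2 to 32 reads in a library, the gene has the paralog Psme2b with which reads may be shared, and the call was lost in 8 of 12 fits that left out a library (adjusted p up to 0.097).

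Psme4 (PA200), a large single-chain activator whose promoter is printed above, had the largest difference of this class at 72 h without being called. It had 2.82, 3.76 and 4.38 RPKM in the lowest, median and highest library of KD 72 h and 5.50, 4.18, 4.42, 3.38 and 4.98 in NC 72 h, and the log2 fold change was -0.28 ± 0.19 (adjusted p = 0.32). At 24 h it had 3.04, 3.52 and 4.44 RPKM in KD and 3.20, 4.39 and 5.47 in NC, with -0.26 ± 0.19. The groups overlapped at both times. Psme1 (PA28α) had log2 fold changes of 0.02 and 0.22, Psme3 (PA28γ) of -0.34 and -0.15, and the inhibitor Psmf1 (PI31) of -0.13 and -0.06, none of them called.

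All 7 assembly chaperones had positive log2 fold changes at both times, where 48.9% of genes had them at 24 h and 51.4% at 72 h. Their medians were 0.18 and 0.21. At each time 1 of the 7 (14.3%) was called higher, near the 11.1% and 11.0% of all genes. Psmg3 (PAC3), which helps to assemble the alpha ring, had 31.3, 36.2 and 45.7 RPKM in the lowest, median and highest library of KD 24 h and 23.1, 28.9 and 31.8 in NC 24 h. At 72 h it had 27.9, 32.7 and 39.9 in KD and 28.6, 26.8, 28.2, 31.3 and 28.5 in NC. The groups overlapped at both times. The log2 fold change was 0.41 ± 0.12 at 24 h (adjusted p = 0.027) and 0.21 ± 0.11 at 72 h (adjusted p = 0.16). The call was lost without NC 24 h replicate 1 (adjusted p = 0.064) or 3 (adjusted p = 0.059), and the gene overlaps Gm26938.

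Psmg2 (PAC2), which acts with Psmg1 at the alpha ring, rose at 72 h by 0.37 ± 0.10 (adjusted p = 0.020), with 36.5, 43.8 and 47.2 RPKM in KD and 32.0, 33.4, 36.9, 35.7 and 28.6 in NC. The groups overlapped slightly, and without NC 72 h replicate 6 the call was lost (adjusted p = 0.054). At 24 h Psmg2 had 31.3, 45.3 and 47.8 RPKM in KD and 35.8, 41.0 and 45.1 in NC, with 0.07 ± 0.12. Psmg1 (PAC1) had log2 fold changes of 0.18 and 0.00, and Psmg4 (PAC4) of 0.38 and 0.28. The chaperones of the cap base, Psmd5, Psmd9 and Psmd10, had 0.40, 0.16 and 0.06 at 24 h and 0.30, 0.14 and 0.16 at 72 h. Psmc3ip had 0.45 and -0.14, not called.

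Whether the knockdown effect differed between times was tested by an interaction term over all groups. None of the 45 members was called by limma, against 0.281% of 10304 genes, and 2 had an unadjusted p under 0.05. These were Psma4, whose log2 fold change was lower by 0.38 at 72 h than at 24 h (unadjusted p = 0.017), and Psmc3, whose log2 fold change was higher by 0.48 (unadjusted p = 0.036). The rise of Psmc3 at 72 h alone is therefore not shown to differ from 24 h. Within the larger cluster Psmd13 was called, with a difference of 1.43 ± 0.30 (adjusted p = 0.026). No member was called by limma with voom on the recovered reads.

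Without knockdown, 5 of 45 members changed from NC 24 h to NC 72 h, 1 higher and 4 lower, where 9.58% of 9482 genes were called, 4.88% higher and 4.69% lower. Libraries did not overlap for 1 higher and 4 lower members, against 4.06% and 4.20% of genes. This comparison shares its libraries with those above. Of the 4 that fell with time, Psmb10, Psme1 and Psme2 are known as interferon-inducible genes. Psmb10 fell by 1.46 ± 0.21 (log2, adjusted p = 5.4e-04), from 67.8 to 148 RPKM in NC 24 h to 27.9 to 49.5 in NC 72 h, 0.362 of the earlier level. Psme1 fell by 0.60 ± 0.10 (adjusted p = 0.0019), from 122 to 175 RPKM to 91.3 to 117. Both had no overlap, and both calls were kept whichever library was left out. Psme2 fell by 1.06 ± 0.29 (adjusted p = 0.031), and Psma5 (α5), a constitutive subunit, fell by 0.25 ± 0.06 (adjusted p = 0.021). Psmd10 (gankyrin), a chaperone of the cap base, rose by 0.32 ± 0.09 (adjusted p = 0.049). The call of Psmd10 was lost in 9 of 11 fits that left out a library (adjusted p up to 0.12), on the deposited scale, with voom and with no filter, and that of Psme2 in 7 of 11 (adjusted p up to 0.075). Psme1 overlaps Emc9 and Psma5 overlaps 1700010K24Rik in GENCODE M21. Leaving out 1 library gave 2 calls without NC 24 h replicate 2 and up to 5 otherwise, and Psma5 was lost without NC 24 h replicate 1 (adjusted p = 0.051) or 2 (adjusted p = 0.056).

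Partner genes outside the naming rule comprised associated factors, the NRF1 axis, the segregase p97 with its shuttles, and ubiquitin genes, 35 in all, of which 34 passed the filter. At 24 h, 11 rose and 2 fell (38.2% called), and at 72 h, 7 rose and 1 fell (23.5% called). The median log2 fold changes were 0.26 and 0.19. The list was chosen with earlier results of these data known, so its counts are a description. Of all genes, 11.1% were called higher and 13.0% lower at 24 h (24.1% in all), and 11.0% and 12.4% at 72 h (23.5%). Sqstm1 (p62), an autophagy receptor for ubiquitylated cargo, had 72.7, 134 and 192 RPKM in the lowest, median and highest library of KD 24 h and 52.7, 61.4 and 68.6 in NC 24 h, a log2 fold change of 1.00 ± 0.20 (adjusted p = 0.0041). Sqstm1 at 72 h had 97.3 to 113 RPKM in KD and 54.0 to 70.3 in NC, and rose by 0.74 ± 0.10 (adjusted p = 1.8e-04). No libraries overlapped. Within the larger and the smaller cluster Sqstm1 changed by 1.31 and 0.38 (adjusted p = 0.11) at 24 h, and by 0.60 and 0.94, both called, at 72 h. The ubiquitin shuttle Ubqln4 rose by 0.97 and 0.94, and Zfand2a, a stress-inducible proteasome-associated factor, by 0.93 and 1.61. Ubqln2 rose by 1.36 ± 0.37 at 24 h (adjusted p = 0.018), with 2.16 to 14.6 RPKM in KD and 1.14 to 2.91 in NC. Its value at 72 h was 0.78 (adjusted p = 0.055, not called). At 24 h the larger and the smaller cluster had 1.93 and 0.21 (adjusted p = 0.80) for Ubqln2, 1.32 and 0.26 (adjusted p = 0.68) for Ubqln4, and 1.01 and 0.76 (adjusted p = 0.20) for Zfand2a.

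Ufd1l, a substrate adaptor of p97, fell by 0.87 ± 0.15 at 24 h (adjusted p = 0.0019) and by 0.65 ± 0.12 at 72 h (adjusted p = 0.0017), with 14.5 to 24.7 against 30.3 to 38.1 RPKM and 18.7 to 23.5 against 27.3 to 40.5. Ngly1, the glycanase that processes NRF1, fell by 0.84 ± 0.19 at 24 h (adjusted p = 0.0072) and had -0.43 at 72 h (adjusted p = 0.10). Ddi2, the protease that cleaves NRF1, rose by 0.76 at 72 h (adjusted p = 0.029) from a level of 0.98 to 1.64 RPKM, and its Ensembl entry had -0.10. Ddi2 was not called within the larger (0.55) or the smaller cluster (1.06). At 24 h Ufd1l had -1.09 within the larger and -0.44 (adjusted p = 0.12) within the smaller cluster, and Ngly1 had -0.99 and -0.54 (adjusted p = 0.35). Nfe2l1 itself had log2 fold changes of 0.14 ± 0.19 and -0.12 ± 0.13, and the core maturation factor Pomp had 0.06 and 0.00. None of these was called in the scaled fits over all libraries. At 72 h Nfe2l1 was called lower within the larger cluster (-0.36, adjusted p = 0.039) and had 0.27 (adjusted p = 0.41) within the smaller one. Pomp at 72 h was called higher on the deposited scale, at 0.26 (adjusted p = 0.026). Among further partners that rose at 24 h were the p97 gene Vcp by 0.53 and the ubiquitin-activating enzyme Uba1 by 0.56. Within the larger and the smaller cluster Vcp had 0.64 and 0.30 (adjusted p = 0.18), and Uba1 had 0.72 and 0.25 (adjusted p = 0.37). At 72 h Uba1 rose by 0.54, whereas Vcp had 0.10 (adjusted p = 0.56) and was not called.

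The inducible subunits Psmb8 (β5i) and Psmb9 (β1i), which replace Psmb5 and Psmb6, are partners by this rule, and Psmb8 was called at both times. It had 29.3, 89.9 and 118 RPKM in the lowest, median and highest library of KD 24 h and 18.5, 37.8 and 47.9 in NC 24 h, and rose by 1.01 ± 0.34 (adjusted p = 0.043), a call lost in 9 of 12 fits that left out a library. Psmb8 at 72 h had 29.6 to 42.6 RPKM in KD and 9.09 to 33.8 in NC, and rose by 0.93 ± 0.28 (adjusted p = 0.029), lost in 4 of 11 fits. In KD 24 h, NC 24 h and NC 72 h its 2 lowest libraries were those of the smaller cluster, and within the larger cluster at 24 h the change was 1.25 (adjusted p = 4.2e-04), against 0.53 (adjusted p = 0.19) in the smaller one. At 72 h it was 0.42 (adjusted p = 0.068, not called) in the larger and 1.67 (adjusted p = 0.0020) in the smaller cluster. Psmb9 had 16.1 to 68.4 RPKM in KD 24 h and 12.7 to 52.5 in NC 24 h, and its log2 fold changes of 0.20 and 0.07 were not called.

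**Figure D5:**
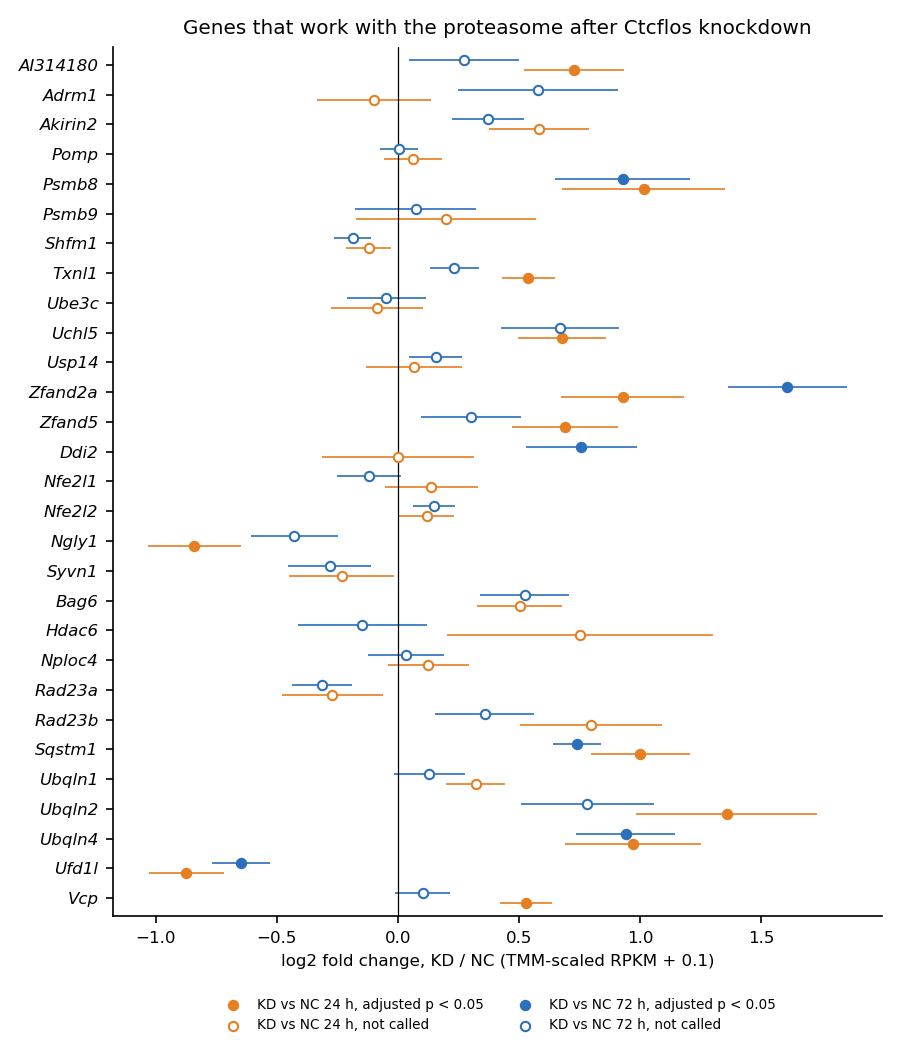
Log2 fold change of the associated factors, the NRF1 axis and p97 with its shuttles that passed the filter (ubiquitin genes and their activating enzymes are not drawn), KD against NC, at 24 h (orange) and 72 h (blue), with bars of 1 SE and filled points for calls by limma. Sqstm1 lies at 1.00 and 0.74, and Ufd1l at -0.87 and -0.65.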

How the data were processed

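Per the labels, the libraries are of the BRB-seq type (bulk RNA barcoding and sequencing), in which barcoded oligo-dT primers and tagmentation give reads from the 3′ ends of transcripts. The authors mapped reads with the Genomatix suite and deposited RPKM for 168326 overlapping transcript entries, so that 1 read can enter several. The version, genome build, filters and strand handling are not given in the sources used here. As 3′ reads do not grow with length, RPKM understates long transcripts. All 24 columns were mapped, with 0 left unused.

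Read numbers were recovered from the RPKM steps (95.1% to 95.7% of low values whole within 0.1). The values of NC 72 h replicate 6, unlike the others, moved in 2 steps per read, so its share counts such steps and not whole reads. Precision is limited by counting error at this depth. An entry was tested if samples numbering at least the size of the smaller group reached a level worth 10 reads at median depth, with 15 reads over all samples. Scaling used a trimmed mean of log ratios (30% of log ratios and 5% of mean levels trimmed), set once over all libraries. The design allowed for counts. As the table holds RPKM, limma 3.58.1 (R 4.3.3, lmFit and eBayes with trend, two-sided) was fitted to log2(scaled RPKM + 0.1), which understates the change of low genes. P-values were adjusted over all entries by Benjamini-Hochberg, and the code was tested on simulated data. Members, lists, tests and the rule for genes named were chosen with earlier results of these data known. Values per library are given for up to 3 called members with the largest change per class and time, or the largest if none was called, and for Psmb5, Psmb6, Psmb7 and Psmb10. Of the partners, up to 5 called genes in each direction are named with Nfe2l1, Pomp, Psmb8 and Psmb9. Other genes named were chosen after their values were seen. The clusters were found in the data. Same-numbered libraries of compared groups had mean correlations of deviations of -0.10, 0.05 and 0.05, so that replicate numbers were not taken as pairs. Alternatives were another pseudocount, no filter, the deposited scale, voom, other entries per gene, a replicate block, agreeing libraries kept apart, each cluster and each library left out. The values of 1 partner gene are not reported here, although it enters the counts.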

Additional observations from a re-analysis of the deposited data

Results flagged for a closer look

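Each member's values in each group were examined for a library that lay far from the others by Dixon's criterion, and 10 of 180 sets (5.56%) held one, where chance gives about 1 in 20. KD 72 h replicate 6 was the lowest library for 3 genes, with 121 RPKM for Psmb6 (nearest 138), 69.1 for Psmc3 (nearest 77.9) and 24.5 for Psmd1 (nearest 27.2). The low Psmb6 value adds to its fall, and the low Psmc3 value goes against its rise. KD 24 h replicate 6, the library with the fewest reads, was the lowest for Psmc1 at 43.7 RPKM (nearest 83.8), and KD 24 h replicate 4 was the lowest for Psmb5 at 15.8 (nearest 20.4). In NC 24 h, replicate 2 was the highest for Psmb4 at 60.3 RPKM (nearest 47.4), and replicate 3 was the lowest for Psmd4 at 69.5 (nearest 81.1). In NC 72 h, the mean of the agreeing replicates 2 and 3 was the highest for Psma2 at 417 RPKM (nearest 391), replicate 4 for Psmc3ip at 8.21 (nearest 4.72) and replicate 6 for Psme3 at 8.93 (nearest 5.60).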

How the results depend on the processing

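Of the values that answer a comparison, 199 stayed close under an alternative and 37 moved. For single genes, 1036 values kept direction and side of the threshold, 201 lost a call, 6 gained one and 19 changed sign. With the replicate number as a block, which the pairing check did not bear out, 3 members were called at 24 h, 7 at 72 h and 2 in NC over time. At 24 h, 4 members were called with no filter, 5 with voom, 5 with Ensembl entries (29 members tested) and 2 within the smaller cluster. The medians there were 0.23 in the core and 0.10 in the cap, with 0 partners called by limma. At 72 h, 25 members were called on the deposited scale (medians 0.35 in the core and 0.48 in the cap, 19 partners), 7 with Ensembl entries and 1 within the smaller cluster, where 5 partners were called. With the agreeing libraries kept apart, 13 partners were called. Within the larger cluster 1 member was called in the interaction. In NC over time, 3 members were called with no filter, 2 with Ensembl entries and 9 with the cluster as a covariate. Leaving out 1 library gave 2 to 10 members at 24 h, 9 to 13 at 72 h, 0 in the interaction and 2 to 5 in NC over time, and gave cap medians at 24 h from -0.065 to 0.11. The fits within the smaller cluster and with the cluster as a covariate were chosen after seeing the data.

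Changes of sign concerned genes that were not called in the scaled fits over all libraries, with Ddi2 as the exception. Psmb7 at 24 h had 0.00059 on the deposited scale. Nfe2l1 at 24 h had -0.19 within the smaller cluster and -0.017 to 0.23 over the libraries left out, lowest without KD 24 h replicate 6, and at 72 h it had 0.13 on the deposited scale and 0.27 within the smaller cluster. Ddi2 at 72 h had -0.097 as an Ensembl entry. Psmb9 over the libraries left out had -0.053 to 0.42 at 24 h and -0.17 to 0.20 at 72 h, and at 72 h it had -0.011 with the agreeing libraries apart and -0.36 within the larger cluster. Pomp at 72 h had -0.0039 with the agreeing libraries apart, -0.086 within the smaller cluster, -0.00073 with the covariate and -0.022 to 0.026 over the libraries left out. Apart from fewer samples in the clusters and fewer members among Ensembl entries, the causes were not tested. Depth limits most the entries with few reads, Psme2 with 2 to 32 and Psma3 with 7 to 123 in a library.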
